A study of Homo sapiens with 12 samples.

Results

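In Z138 cells treated with AU-15330, 117 genes were lower than in DMSO at 8 h and nearer to DMSO, or above it, at 24 h. They included ABCG1, SCD5, VGF, MELTF, PDPN and LILRB4, and after 24 h the RNA of ABCG1, MELTF, PDPN and LILRB4 stood above its DMSO level. Such genes were the smaller part: 36 of the 117 were above DMSO on average at 24 h, against 50.9% of all symbols. In 37 of the 117 every AU-15330 library was still below DMSO at 24 h, against 31.2% of all symbols. The genes were chosen by their values: a change at 8 h of -0.6 or less together with a change at 24 h above -0.3, each the mean log2(normalised count + 60) of the AU-15330 libraries minus that of the DMSO libraries. Of the 9962 gene symbols with a mean of at least 300 normalised counts in any group, the 117 make up 1.17%. A total of 878 symbols met the 8 h threshold, so the recovering genes are 13.3% of the early falls, and the other 761 were still at -0.3 or below at 24 h. Because the rule used both treatment comparisons and every library, the changes of these genes are descriptions and carry no test.

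Z138 is a human mantle cell lymphoma cell line, labelled as wild type, and every group came from it. The groups were cells in 0.5 µM AU-15330 for 8 h, cells in DMSO for 8 h, cells in 0.5 µM AU-15330 for 24 h and cells in DMSO for 24 h, with 12 samples listed. AU-15330 is a proteolysis-targeting chimera, a small molecule that brings its targets to a ubiquitin ligase, and it degrades SMARCA2, SMARCA4 and PBRM1. The labels list 3 samples a group, but at 8 h a pair of columns under 1 DMSO library name held identical values, so DMSO at 8 h had n = 2 and the other groups n = 3. The labels give each time its own batch, so a difference in level between 8 h and 24 h cannot be told apart from the batch. They do not say that replicates were separate cultures, so SEs and p-values cover the scatter among these samples alone, and that scatter may be technical. Estimated total counts ran from 50750000 to 67600000 per library (to 4 digits).

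SMARCA4 and SMARCA2 are the alternative ATPases of the BAF complexes, which slide and evict nucleosomes and keep enhancers and many promoters accessible to transcription factors. PBRM1 is a subunit of the related PBAF complex. When the ATPases are lost, accessibility falls fast at enhancers that need continuous remodelling. B cell markers were high in the libraries, with CD79A at 4553 to 12340 and CD74 at 106950 to 183960 normalised counts, as were CCND1 (146900 to 169250) and SOX11, which mark mantle cell lymphoma. Of the markers of other lineages, CD3D and CD14 were at or below 11.7 normalised counts in every library, and CD3E, CD8A, LYZ and ITGAM at or below 75.8. CD3G, a T cell marker, was at 297 ± 49.0 and 94.1 ± 15.4 under AU-15330 and at 739 ± 6.10 and 711 ± 28.2 under DMSO at 8 h and 24 h (mean ± SD, n = 2 for DMSO at 8 h and n = 3 for the others). SDC1, a plasma cell marker, was at 4281 ± 106 under AU-15330 and 4047 ± 279 under DMSO at 8 h, and at 4431 ± 149 under AU-15330 and 3554.5 ± 257 under DMSO at 24 h. TNFRSF17, the BCMA receptor of plasma cells, went the other way: 1748 ± 147 under AU-15330 and 2578 ± 12 under DMSO at 8 h, and 2271 ± 68.6 under AU-15330 and 3184 ± 30.7 under DMSO at 24 h (limma adjusted p = 4.37e-05 and 1.99e-05). The part of these markers in the results was not tested.

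The fall at 8 h was moderate in most of the 117 genes. Their median change was -0.72 at 8 h and -0.12 at 24 h, while the 761 genes that stayed low had medians of -0.999 and -0.994, and all 9962 symbols had 0.04 and 0.01. At 8 h, 8 of the 117 were at -1 or below and 51 lay between -0.7 and -0.6. At 24 h, 31 were within 0.1 of DMSO (28.3% of all symbols), 36 were above it (50.9%) and 11 were at or above 0.3 (15.7%). Another 36 lay in the narrow band from -0.3 to -0.2 (6.74%). In 115 of the 117 the AU-15330 libraries lay wholly below the DMSO libraries at 8 h, against 29.3% of all symbols, but the rule used this contrast and nothing is read from the count. At 24 h the AU-15330 libraries lay wholly below DMSO in 37 (31.2% of all symbols) and wholly above in 11 (31.1% of all symbols), a contrast that the rule used as well. In bulk RNA, fewer cells of a kind and less RNA per cell cannot be told apart.

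**Figure D1:**
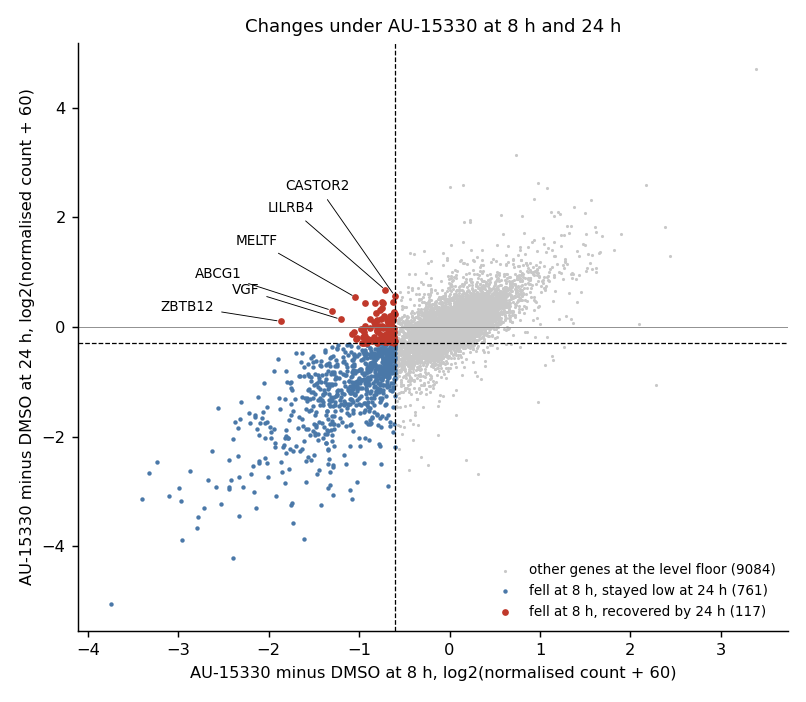
Each point is a gene symbol, with its change (AU-15330 minus DMSO, log2(normalised count + 60)) at 8 h on the x axis and at 24 h on the y axis. Dashed lines are the thresholds of -0.6 and -0.3, and the 117 recovering genes (red) form the upper left corner while the 761 that stayed low (blue) extend down to -5.05 at 24 h.

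The thresholds cut through a continuum. CASTOR2 (-0.605), MAPK11 (-0.606) and SLC4A7 (-0.606) were the genes nearest inside the 8 h threshold, and TBC1D1 (-0.594), TRIM2 (-0.591) and AMH (-0.586) were nearest outside it. At 24 h LMCD1 (-0.299), IKZF2 (-0.297) and KLHL25 (-0.295) were nearest inside, and ANKZF1 (-0.303), TNFRSF10B (-0.307) and AMN (-0.31) nearest outside. With thresholds of -0.7 and -0.2 the rule would take 44 genes, and with -0.5 and -0.4 it would take 241.

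ABCG1 exports cholesterol from cells to lipoproteins and had the most negative 8 h change after ZBTB12, whose libraries were uneven. It is annotated at chr21:42199689-42297244 on the plus strand of GRCh38. Its normalised counts were 468, 406 and 469 under AU-15330 against 1229.6 and 1152 under DMSO at 8 h, and 1627, 1628 and 1668 under AU-15330 against 1373, 1330 and 1259.7 under DMSO at 24 h. The groups did not overlap at either time: every AU-15330 library was below DMSO at 8 h and every one was above it at 24 h. The change was -1.30 (SE 0.076) at 8 h and 0.30 (SE 0.068) at 24 h. Under AU-15330 the level at 24 h was above that at 8 h by 1.75 (SE 0.068) on the log2 scale, whereas under DMSO the same difference was 0.14 (SE 0.076).

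Genes of lipid metabolism besides ABCG1 were among the members, chosen after their values were seen. SCD5, a stearoyl-CoA desaturase that makes monounsaturated fatty acids, had 391.5, 438 and 409.6 normalised counts under AU-15330 and 932 and 943 under DMSO at 8 h, then 871, 885 and 866 under AU-15330 and 1028, 975 and 896 under DMSO at 24 h. Its AU-15330 libraries stayed below DMSO at both times, but the gap narrowed: -1.08 (SE 0.081) at 8 h and -0.13 (SE 0.072) at 24 h. OSBPL7, a member of the oxysterol-binding protein family, had changes of -0.96 (SE 0.17) and -0.29 (SE 0.15). GRAMD1A, which moves cholesterol from the plasma membrane to the endoplasmic reticulum, had -0.63 (SE 0.049) and -0.20 (SE 0.044).

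The secreted proteins were 4, and 3 of them were above DMSO on average at 24 h, as were 50.9% of all symbols, a contrast that the rule used. WNT3, 1 of these 3, had overlapping libraries at both times. Its 8 h change was 0.15 with its entries summed. VGF, a neuropeptide precursor stored in secretory granules, had 103, 110.1 and 87.1 normalised counts under AU-15330 and 267 and 355 under DMSO at 8 h, and 478, 565 and 466 under AU-15330 and 435, 472 and 440.3 under DMSO at 24 h. The groups were apart at 8 h and overlapped at 24 h, with changes of -1.20 (SE 0.14) and 0.14 (SE 0.12). Under AU-15330 VGF was higher at 24 h than at 8 h by 1.81 (SE 0.12), the largest such difference among the 117, and under DMSO by 0.47 (SE 0.14). MFGE8, which links dying cells to phagocytes, had 834, 735 and 636 under AU-15330 and 1607 and 1495 under DMSO at 8 h, and 1354, 1379 and 1248 under AU-15330 and 1731, 1486 and 1399 under DMSO at 24 h, still without overlap. MDK, the growth factor midkine, had changes of -0.80 (SE 0.13) and 0.13 (SE 0.12).

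Upstream sequences of 3 genes with large recoveries, VGF, SCD5 and MELTF, are shown to give the composition of their promoters. Each line holds the 250 bases before the RefSeq start site on the minus strand of GRCh38.p14, written 5′ to 3′, and capitals mark the GC box (GGGCGG, either strand) and the cyclic AMP response element (TGACGTCA). VGF lies at chr7:101165570-101165819, SCD5 at chr4:82798797-82799046 and MELTF at chr3:197029818-197030067.

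VGF: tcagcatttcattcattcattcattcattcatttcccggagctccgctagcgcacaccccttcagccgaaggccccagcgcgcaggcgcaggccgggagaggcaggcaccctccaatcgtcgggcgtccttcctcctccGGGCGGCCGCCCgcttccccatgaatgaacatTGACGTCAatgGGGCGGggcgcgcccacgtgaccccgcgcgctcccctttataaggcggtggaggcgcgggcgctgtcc

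SCD5: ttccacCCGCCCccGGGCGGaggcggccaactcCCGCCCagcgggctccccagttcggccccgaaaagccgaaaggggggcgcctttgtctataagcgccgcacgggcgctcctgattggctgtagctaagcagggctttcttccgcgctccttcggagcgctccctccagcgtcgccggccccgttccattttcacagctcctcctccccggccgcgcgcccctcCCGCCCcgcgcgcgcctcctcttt

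MELTF: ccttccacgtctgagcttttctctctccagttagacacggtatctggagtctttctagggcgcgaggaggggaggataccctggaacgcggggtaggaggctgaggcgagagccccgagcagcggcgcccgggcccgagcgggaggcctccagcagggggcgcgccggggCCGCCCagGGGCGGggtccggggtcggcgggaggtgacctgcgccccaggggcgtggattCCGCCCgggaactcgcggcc

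The window of VGF held 3 GC boxes and 1 cyclic AMP response element, which starts 79 bases before the start site, as well as 1 TATA box (TATAAA, either strand). SCD5 held 4 GC boxes and MELTF 3. A CCAAT box (CCAAT, either strand) occurred 1 time each in VGF and SCD5 and 0 times in MELTF. Over all 27305 RefSeq promoters, the 250-base windows held a GC box in 42.3%, a cyclic AMP response element in 1.77% and a TATA box in 11.1%. They held a CCAAT box in 33.0%. The windows were 66.0% (VGF), 71.2% (SCD5) and 72.8% (MELTF) G or C. RefSeq promoters were matched for 91 of the 117 genes (77.8%), too few for a comparison over the whole group. A match of letters is a description and not a bound site.

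Surface receptors and adhesion proteins were 18 of the genes, in role classes that were assigned from textbook knowledge after the values were seen. Their median change was -0.75 at 8 h and 0.098 at 24 h, and 12 of the 18 were above DMSO on average at 24 h, as were 36 of the 117 and 50.9% of all symbols, a contrast that the rule used. MELTF, an iron-binding relative of transferrin anchored in the membrane, had 316, 261 and 241 normalised counts under AU-15330 and 663 and 584 under DMSO at 8 h, then 875, 833 and 712 under AU-15330 and 502, 578 and 519 under DMSO at 24 h. The AU-15330 libraries were all below DMSO at 8 h and all above it at 24 h, with changes of -1.04 (SE 0.13) and 0.55 (SE 0.11). PDPN, podoplanin, a mucin-type ligand of the platelet receptor CLEC-2, had 700.0, 582 and 489 under AU-15330 and 1182 and 1167 under DMSO at 8 h, then 1706, 1679 and 1493 under AU-15330 and 1344, 1218 and 1001 under DMSO at 24 h. It too was separated at both times in opposite directions, with changes of -0.94 (SE 0.14) and 0.44 (SE 0.13).

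LILRB4, an inhibitory receptor of the leukocyte immunoglobulin-like family, had the highest value at 24 h. AU-15330 libraries held 394, 531 and 490.3 normalised counts against 849 and 763 in DMSO at 8 h, and 1631, 1770.3 and 1474 under AU-15330 against 977, 934 and 1069 under DMSO at 24 h. The changes were -0.71 (SE 0.12) and 0.68 (SE 0.11), again with no overlap at either time. The table has 5 entries for LILRB4, and the one used here is not on the primary assembly. With its entries summed the changes were -0.66 and 0.77, and the primary entry alone had -0.69 and 1.02.

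PLXNB1, a plexin that receives semaphorin 4D, had 619.7, 659 and 823 normalised counts under AU-15330 against 1076 and 1351 under DMSO at 8 h, and 1901, 1745 and 1567 under AU-15330 against 1159, 1273 and 1325 under DMSO at 24 h. The changes were -0.74 (SE 0.13) and 0.45 (SE 0.12), and the groups were apart at both times. JAM2, a junctional adhesion molecule, had changes of -0.83 (SE 0.32) and 0.44 (SE 0.29) with overlapping libraries at 24 h: 535, 478 and 280.0 under AU-15330 and 354, 239.9 and 288 under DMSO. CDH24, a type II cadherin, had -0.61 (SE 0.11) and 0.27 (SE 0.10), and it was separated in opposite directions at the early and the late time. Other surface genes stayed below DMSO on average. IL27RA, a cytokine receptor subunit, had -0.69 and -0.27, LDLRAD3 had -0.77 and -0.23, and the activin receptor ACVR2B had -0.68 and -0.084. S1PR2, a sphingosine 1-phosphate receptor that holds B cells in germinal centres, had 259, 254 and 227 normalised counts under AU-15330 and 521 and 404 under DMSO at 8 h, and 425, 425 and 349 under AU-15330 and 354, 384 and 320.1 under DMSO at 24 h. Its changes were -0.76 (SE 0.14) and 0.15 (SE 0.12), and the libraries overlapped at 24 h. The remaining surface genes, with changes at 8 h and 24 h in parentheses, were the adhesion molecule ICAM5 (-0.93 and 0.022), the tetraspanins CD151 (-0.88 and 0.15) and TSPAN2 (-0.79 and -0.084), the semaphorin receptor PLXNA3 (-0.82 and 0.043), the glypican GPC2 (-0.69 and 0.073), the receptor phosphatase PTPRS (-0.69 and 0.12), the planar polarity cadherin CELSR1 (-0.62 and -0.10) and IGFLR1 (-0.73 and -0.16).

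**Figure D2:**
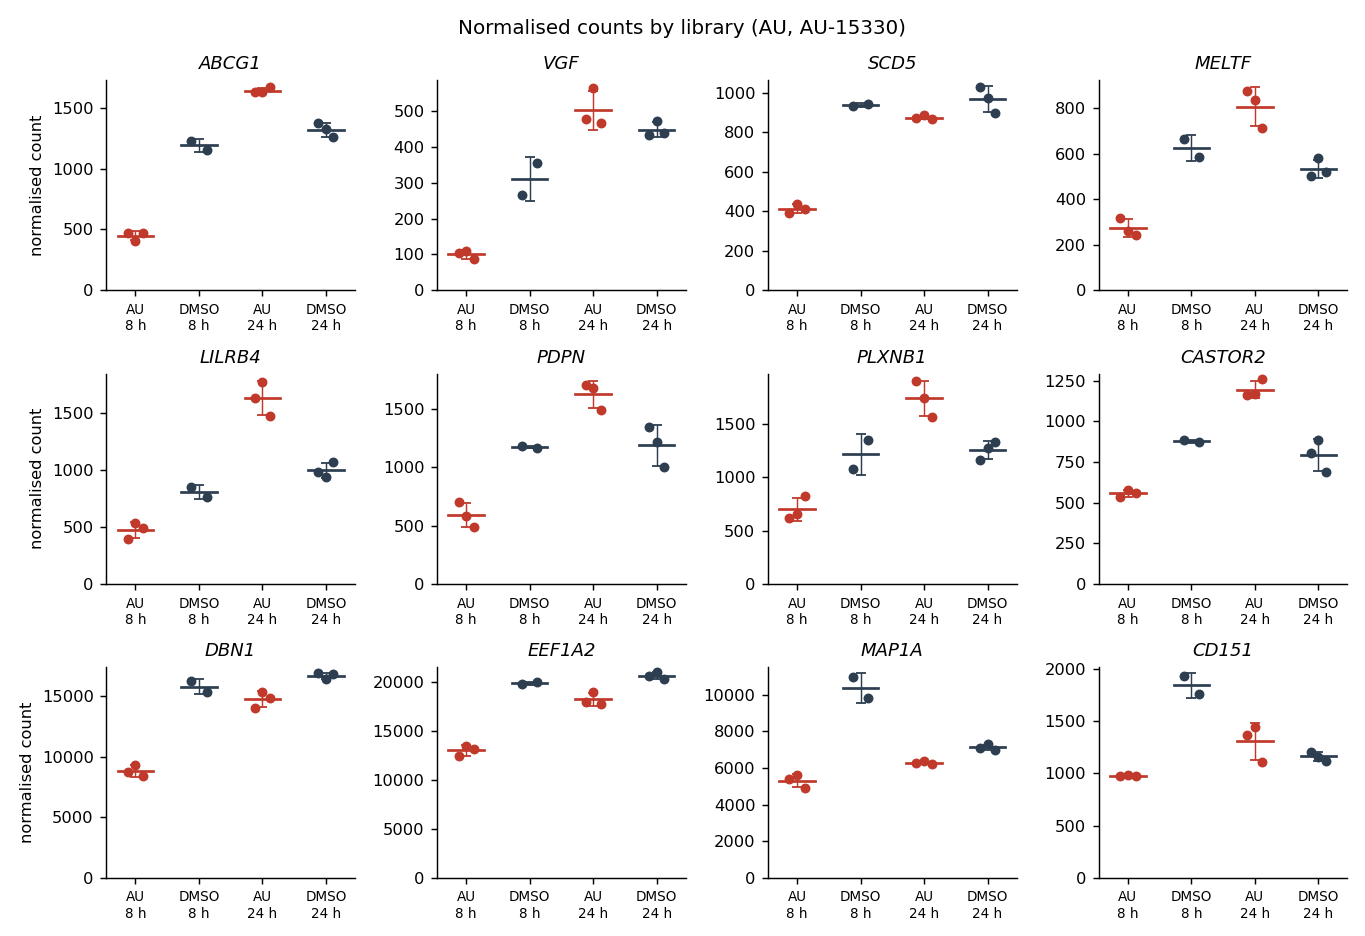
Normalised counts (y axis, from 0) of 12 recovering genes in each library, with AU-15330 left of DMSO at 8 h and then at 24 h. Points are libraries, long bars are means and error bars are SDs (n = 2 for DMSO at 8 h, n = 3 for the others). The AU-15330 libraries at 8 h are the lowest in all 12 panels.

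Transporters and channels, 9 genes with ABCG1 among them, had a median change of -0.77 at 8 h and -0.14 at 24 h. Of these, 3 belong to the solute carrier list. SLC12A7, a potassium-chloride cotransporter, had 1231, 1322 and 1446 normalised counts under AU-15330 and 2328 and 2232 under DMSO at 8 h, and 2110.1, 2131 and 2108 under AU-15330 and 1992, 2214 and 2074 under DMSO at 24 h, so the groups were apart at 8 h and overlapped at 24 h. SLC30A1, the zinc exporter of the plasma membrane, had -0.71 (SE 0.10) and -0.14 (SE 0.094), and SLC4A7, a sodium bicarbonate cotransporter, had -0.61 (SE 0.10) and -0.26 (SE 0.094). TTYH3, a membrane protein of the tweety family, was the most abundant of the class. It had 5695, 6419 and 5586 normalised counts under AU-15330 and 10267 and 10341 under DMSO at 8 h, then 9153, 9311 and 9525 under AU-15330 and 11383, 11646 and 11263 under DMSO at 24 h, and its AU-15330 libraries stayed below DMSO. KCNH2, the hERG potassium channel, had changes of -0.73 (SE 0.11) and -0.009 (SE 0.10). TMEM63A, a mechanosensitive channel (-0.88 and -0.025), PKD2, the polycystin-2 channel (-0.86 and -0.26), and SLC8B1, a mitochondrial sodium-calcium exchanger (-0.77 and -0.26), made up the rest.

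Transcription factors and chromatin proteins were the largest class, with 23 genes and a median of -0.68 at 8 h and -0.14 at 24 h. Of these, 3 were above DMSO on average at 24 h, as were 50.9% of all symbols. IKZF2, which encodes the Ikaros family factor Helios, had 7242, 8073 and 7829.8 normalised counts under AU-15330 and 12472 and 11166 under DMSO at 8 h, and 12987, 13015 and 15174 under AU-15330 and 16697, 17370 and 16429 under DMSO at 24 h. Its AU-15330 libraries were below DMSO at both times, with changes of -0.61 (SE 0.075) and -0.30 (SE 0.067), while both treatments were higher at 24 h than at 8 h, by 0.82 and 0.51. HDAC7, a class IIa histone deacetylase, followed the same course, with -0.66 (SE 0.079) and -0.25 (SE 0.071). ASF1A, a histone H3-H4 chaperone, had 1775, 1864 and 1788 under AU-15330 and 3226 and 3659.7 under DMSO at 8 h, and 2969.8, 2980.3 and 3148 under AU-15330 and 3585, 3580.3 and 3502 under DMSO at 24 h. The gap closed in part, to -0.23 at 24 h against -0.90 at 8 h. CBX7 (-0.67 and -0.18) and CBX8 (-0.62 and 0.12) are chromodomain subunits of Polycomb repressive complexes. ZEB2, a zinc finger repressor, had -0.64 (SE 0.085) and 0.012 (SE 0.076), and its libraries overlapped at 24 h. LMCD1, a LIM domain cofactor (-0.94 and -0.30), ZIK1 (-0.73 and -0.26), PATZ1 (-0.68 and -0.26) and MAFG, a small Maf protein (-0.65 and -0.18), were wholly below DMSO at both times. GLIS2 (-0.95 and -0.091), ZBTB46 (-0.96 and -0.028), TSC22D1 (-0.80 and -0.048), PBXIP1 (-0.66 and -0.086) and GTF2IRD1 (-0.65 and -0.012) came within 0.1 of DMSO at 24 h. SMAD9, a transducer of BMP signals (-0.87 and -0.24), ZBTB3 (-0.94 and -0.17) and INO80C, a subunit of the INO80 remodeller (-0.65 and -0.22), had smaller gaps at 24 h. Their DMSO levels differed by -0.47, -0.45 and -0.28 between 8 h and 24 h. The AU-15330 levels of SMAD9, ZBTB3 and INO80C differed less, by 0.16, 0.32 and 0.15.

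TP73, a transcription factor of the p53 family, had 1239, 1287 and 1225 normalised counts under AU-15330 and 2096 and 1985 under DMSO at 8 h, and 1827, 1997 and 1787 under AU-15330 and 2015, 1912 and 1748 under DMSO at 24 h. The groups were apart at 8 h and overlapped at 24 h, with changes of -0.68 (SE 0.070) and -0.015 (SE 0.063). TP73-AS1, whose annotation overlaps TP73 by 691 bases on the other strand, had -0.82 (SE 0.090) and -0.24 (SE 0.081). Whether strand was used in counting is not stated in the labels, so reads from the stretch that both genes cover cannot be assigned to either. It was also the only pair of overlapping members, and 4 other pairs lay within 100 kb of each other: TRIM56 with VGF, EEF1A2 with PPDPF, S1PR2 with ICAM5, and PSMC3IP with PLEKHH3.

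Intracellular signalling genes, 15 in all, had medians of -0.69 at 8 h and -0.12 at 24 h. CASTOR2, a relative of the arginine sensor that acts on mTORC1 through GATOR2, had 535, 576 and 558 normalised counts under AU-15330 against 884 and 870.3 under DMSO at 8 h, and 1162, 1166 and 1258 under AU-15330 against 806, 882 and 687 under DMSO at 24 h. It passed from wholly below DMSO to wholly above it, with -0.60 (SE 0.10) and 0.56 (SE 0.087). RRAGD, a Rag GTPase that recruits mTORC1 to lysosomes, had -0.75 (SE 0.094) and -0.23 (SE 0.084) and stayed below DMSO in every library. MAPK11, the p38 beta kinase, had 347, 289.5 and 299 under AU-15330 and 504 and 505 under DMSO at 8 h, and 633, 611 and 609 under AU-15330 and 507, 528 and 500.1 under DMSO at 24 h. Like CASTOR2 it was separated in opposite directions. PLCG1, a phospholipase of antigen receptor signalling, had 3878, 3852 and 3128 under AU-15330 and 6114 and 5283 under DMSO at 8 h, and 5998, 5821 and 5887 under AU-15330 and 5885, 6315 and 5688 under DMSO at 24 h. Its changes were -0.65 (SE 0.092) and -0.013 (SE 0.082), and the 24 h libraries overlapped. PIM1, a serine/threonine kinase of survival signalling, had -0.80 (SE 0.094) and 0.019 (SE 0.084). HIPK2, a nuclear kinase (-0.65 and -0.19), TNKS, a poly(ADP-ribose) polymerase of telomeres (-0.64 and -0.27), PLEKHG4B (-0.79 and -0.24) and RGL1, an activator of Ral GTPases (-0.71 and -0.28), were lower on average at both times. GNG4, a G protein gamma subunit (-0.80 and -0.068), was within 0.1 of DMSO at 24 h and DIRAS1, a Ras-related GTPase (-0.63 and 0.17), was wholly above it.

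ARHGEF11 had -0.69 (SE 0.15) and -0.12 (SE 0.14), ARHGEF39 -0.67 (SE 0.17) and 0.11 (SE 0.15), and ARHGAP25 -0.78 (SE 0.18) and -0.25 (SE 0.16). The first pair are guanine nucleotide exchange factors and ARHGAP25 is an inactivator of Rac. Only ARHGAP25 of these 3 was wholly below DMSO at 24 h.

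Cytoskeletal and vesicle traffic genes, 12 in all, had medians of -0.73 at 8 h and -0.15 at 24 h. DBN1, the actin-binding protein drebrin, had 8759, 9329.8 and 8416 normalised counts under AU-15330 and 16264 and 15364 under DMSO at 8 h, and 14079, 15387 and 14837 under AU-15330 and 16914, 16431 and 16827 under DMSO at 24 h. AU-15330 libraries were below DMSO at both times, and the 24 h change was -0.18 (SE 0.045). MAP1A, a microtubule-associated protein, took another course. It had 5418, 5593 and 4926 under AU-15330 and 10954 and 9807 under DMSO at 8 h. At 24 h it had 6264, 6374 and 6236 under AU-15330 and 7079, 7291 and 6998 under DMSO. Its DMSO level differed by -0.54 between the times and its AU-15330 level by 0.24. Time and batch cannot be told apart in these differences. RAB3A (-0.77 and -0.23) and RAB3D (-0.66 and -0.15) are small GTPases of regulated exocytosis. SUN2, which links the nucleus to the cytoskeleton, had -0.65 (SE 0.062) and 0.056 (SE 0.055). The kinesin KIF3C (-0.75 and -0.15), the alpha tubulin TUBA4A (-0.75 and -0.26), the liprin PPFIA3 (-0.72 and -0.17), the spindle protein PSRC1 (-0.69 and -0.13) and RUBCN, an inhibitor of autophagy (-0.67 and -0.14), stayed slightly lower on average. EPB41L1 (-0.84 and 0.091) and RILPL2 (-0.64 and -0.069) were within 0.1 of DMSO at 24 h.

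Among 15 enzymes, which include SCD5, the median was -0.74 at 8 h and -0.085 at 24 h. BACE2, an aspartyl protease, had 109.9, 113 and 108 normalised counts under AU-15330 and 248 and 347 under DMSO at 8 h, and 345, 301 and 254 under AU-15330 and 341, 342 and 279.8 under DMSO at 24 h. The groups were apart at 8 h and overlapped at 24 h, with changes of -1.06 (SE 0.15) and -0.085 (SE 0.14). CTSZ, the lysosomal cathepsin Z, had 328, 354 and 248 under AU-15330 and 584 and 589.5 under DMSO at 8 h, and 901, 876 and 673 under AU-15330 and 726, 693 and 584 under DMSO at 24 h. Its mean was above DMSO at 24 h (0.26) with overlapping libraries. PGPEP1, a peptidase that removes pyroglutamate from peptides, was separated in opposite directions at the early and the late time, with -0.74 (SE 0.13) and 0.44 (SE 0.12). COQ10A, a coenzyme Q-binding protein of mitochondria, had -1.03 (SE 0.12) and -0.22 (SE 0.11). GALNT4, which starts O-glycosylation, had -0.98 (SE 0.25) and -0.041 (SE 0.22), and it lies within the POC1B-GALNT4 readthrough gene, so its value is uncertain. ENO2, the neuronal enolase (-0.66 and 0.21), and UST, a sulfotransferase (-0.62 and 0.23), were above DMSO on average at 24 h with wide spread. TPST1, a tyrosine sulfotransferase (-0.68 and -0.18), MSRB2, a methionine sulfoxide reductase (-0.65 and -0.19), and PLOD1, a collagen lysyl hydroxylase (-0.63 and -0.011), were below or level with it.

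EEF1A2, a tissue-restricted translation elongation factor, was the most abundant of the 117 genes. It had 12453, 13464 and 13199 normalised counts under AU-15330 and 19827 and 20029 under DMSO at 8 h, and 18021, 19058 and 17742 under AU-15330 and 20630, 21114 and 20386 under DMSO at 24 h. AU-15330 libraries were below DMSO at both times, with changes of -0.61 (SE 0.042) and -0.18 (SE 0.037). NARF, a partner of prelamin A, had -0.62 (SE 0.058) and -0.23 (SE 0.052). Most of the group was far less abundant: 63 of the 117 averaged under 1000 normalised counts and 3 averaged 10000 or more, with a median of 864, against 1083 for the genes that stayed low and 2336 for all symbols. The remaining genes were led by PLEKHH3 (-0.96 and -0.049), which was higher at 24 h than at 8 h by 1.28 under AU-15330 and by 0.37 under DMSO. Genes of DNA repair and recombination were PSMC3IP (-0.76 and -0.20), the helicase PIF1 (-0.65 and -0.009) and the exonuclease EXD2 (-0.71 and -0.20). RTL5 (-0.78 and 0.011) and RTL8A (-0.62 and -0.27) derive from retrotransposons. NDRG2 (-0.72 and 0.20) was above DMSO on average at 24 h, and FAM167A (-0.61 and -0.009) was level with it. FAM92A (-0.72 and -0.16), FAM135A (-0.64 and -0.22), PPDPF (-0.63 and -0.25) and SOBP (-0.62 and -0.24) stayed lower on average.

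Ubiquitin ligase genes were 5. TRIM36 had 159.7, 239 and 246 normalised counts under AU-15330 and 343 and 474 under DMSO at 8 h, and 505, 525 and 520.0 under AU-15330 and 375, 354 and 500.0 under DMSO at 24 h, wholly below and then wholly above DMSO. TRIM56, which acts in innate antiviral signalling, had -0.67 (SE 0.089) and -0.16 (SE 0.080). KLHL25, an adaptor of cullin 3, had -0.91 (SE 0.14) and -0.29 (SE 0.12). RNF24 (-0.73 and 0.008) and RMND5B, of the CTLH ligase (-0.63 and -0.20), completed the class.

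**Figure D3:**
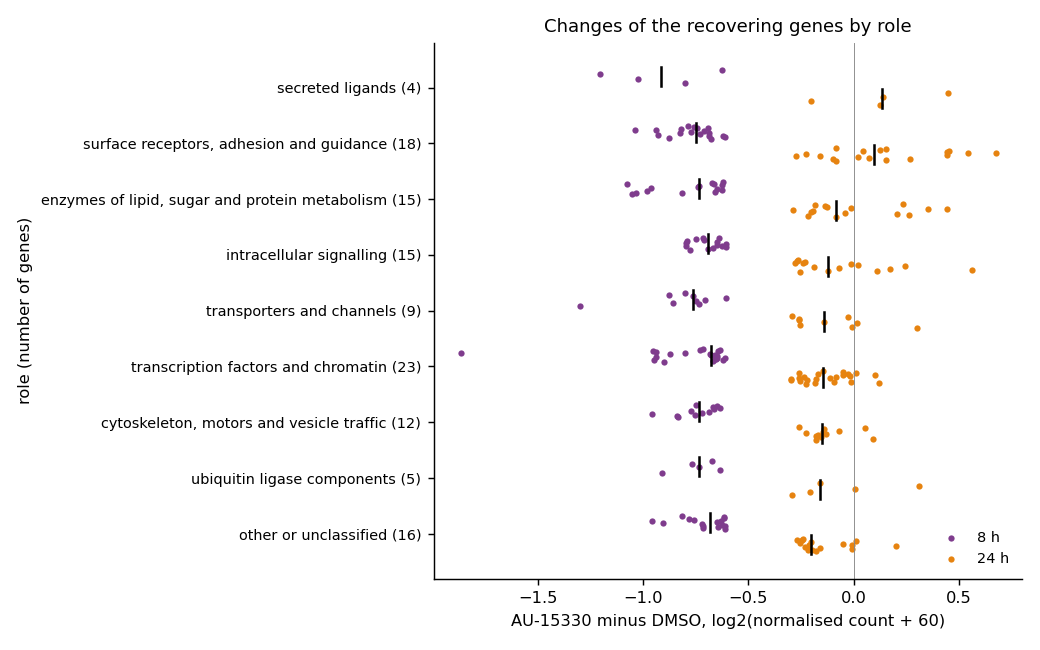
Changes of the 117 genes (x axis, AU-15330 minus DMSO, log2(normalised count + 60)) by role class (y axis, number of genes in parentheses), with 8 h in purple above 24 h in orange and black bars at the medians. At 8 h the classes overlap between -0.68 and -0.91 in their medians, and at 24 h the secreted and surface classes have medians above 0.

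The change between 8 h and 24 h within each treatment differed in size among the genes. Under AU-15330, 94 of the 117 genes were higher at 24 h than at 8 h by at least 0.3, 54 by at least 0.6 and 16 by at least 1. The shares of all symbols were 12.8%, 4.0% and 1.01%. Under DMSO, 28 were lower at 24 h by at least 0.3, which 390 of the 9962 symbols were. Another 82 changed by less than 0.3 (89.7% of all symbols), and 7 were higher by at least 0.3 (6.43%). In 92 genes the rise under AU-15330 was larger than any fall under DMSO (47.5% of all symbols). In 25 the fall under DMSO was at least as large (52.5% of all symbols). The medians were 0.58 under AU-15330 and -0.069 under DMSO, against 0.059 and 0.049 in the genes that stayed low. These differences use the same libraries as the rule, and the low 8 h change favours genes with high DMSO values at 8 h, so nothing is read from them beyond their size. In 95 genes the AU-15330 libraries at 24 h lay wholly above those at 8 h (23.3% of all symbols), and in 42 the DMSO libraries at 24 h lay wholly below those at 8 h (20.3% of all symbols).

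The 25 genes in which the fall under DMSO was at least as large included MAP1A, CD151, KCNH2, RAB3A, CBX8 and GNG4. CD151, a tetraspanin that binds laminin-binding integrins, had 969.8, 985 and 974 normalised counts under AU-15330 and 1929.9 and 1758 under DMSO at 8 h, and 1363, 1447 and 1108 under AU-15330 and 1204, 1159 and 1121 under DMSO at 24 h. Its DMSO level differed by -0.64 (SE 0.10) between the times and its AU-15330 level by 0.39 (SE 0.087). SLC9A3R2, a scaffold of membrane transporters, and ONECUT2, a homeobox factor, were the exceptions whose AU-15330 mean was lower at 24 h than at 8 h. SLC9A3R2 had 243, 292 and 204 under AU-15330 and 441 and 439 under DMSO at 8 h, and 259, 158 and 185 under AU-15330 and 252, 233 and 267 under DMSO at 24 h. For such genes the smaller gap at 24 h came with lower DMSO values, and time and batch cannot be told apart there.

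**Figure D4:**
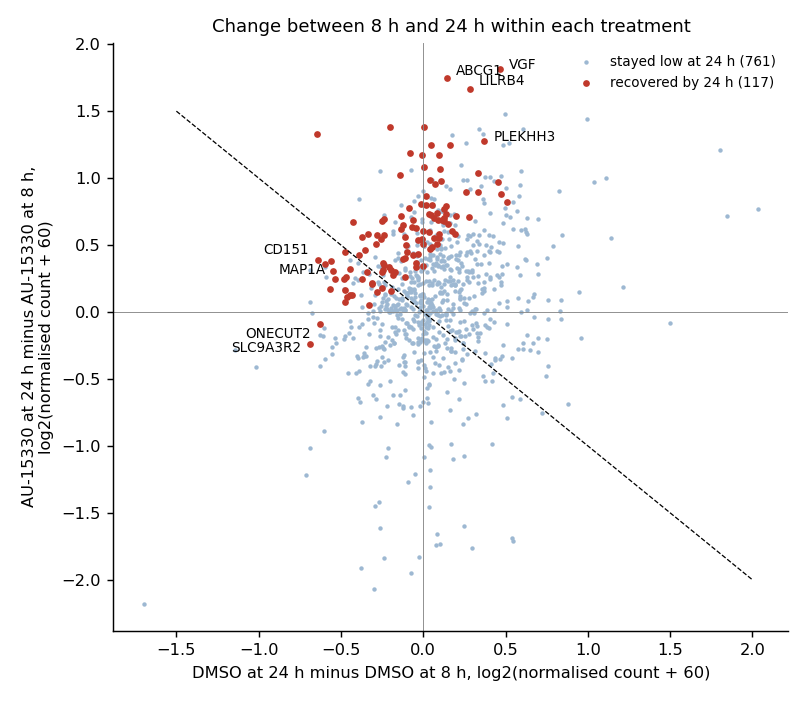
Difference between 24 h and 8 h within AU-15330 (y axis) against that within DMSO (x axis), both log2(normalised count + 60), for the 117 recovering genes (red) and the 761 that stayed low (pale blue). Along the dashed line the sum of both is 0. VGF, ABCG1 and LILRB4 are highest on the y axis, at 1.81, 1.75 and 1.67, and SLC9A3R2 and ONECUT2 lie below 0.

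A few of the 117 rest on uneven or shared counts. ZBTB12, a zinc finger gene of the MHC region with 5 entries, had 211, 4.26 and 26.7 normalised counts under AU-15330 and 169 and 704 under DMSO at 8 h, and 341, 13.8 and 744 under AU-15330 and 417, 510.5 and 10.3 under DMSO at 24 h. Its libraries overlapped at both times, its SE at 8 h was 1.13, and with the entries summed the changes were -0.42 and -0.017. PANK4, of the pantothenate kinase family, had changes of 0.016 and -0.083 with its entries summed, against -0.74 and 0.35 in the entry used. The entry used is not on the primary assembly, and the primary entry went the other way, with 1.019 and -0.545. WNT3, a Wnt ligand, had 0, 126 and 260.0 under AU-15330 and 227 and 134 under DMSO at 8 h, overlapping, and 333, 429 and 152 under AU-15330 and 195, 117 and 295 under DMSO at 24 h. With its 3 entries summed the changes of WNT3 were 0.15 and 0.82, and without AU-15330 replicate 1, the library at 0, the 8 h change was 0.046. These 3 genes would not be members with entries summed, and in that setting 115 genes met the rule, 114 of them among the 117.

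Single libraries moved the membership. Leaving out 1 library at a time gave 110 to 133 genes, of which 92 to 111 were among the 117, and 50 of the 117 met the rule in all 11 cases. Those 50 included ABCG1, SCD5, VGF, MELTF, PDPN, LILRB4, PGPEP1, BACE2, MFGE8, DBN1, MAP1A, CTSZ, PHLDA3 and TP73. The lowest overlap, 92, came without the DMSO library at 8 h that has the duplicated column. Its column name carries the number 2, but the labels give that name to replicates 2 and 3 alike, so which of them it is could not be settled. The number of the 117 whose rise under AU-15330 exceeded the fall under DMSO was 89 to 94 over the same cases.

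The recovering genes were set beside pathway and family lists, and the test was read in the list genes that are not members. Over all 12721 entries tested, limma with Benjamini-Hochberg adjustment at 0.05 called 44.2% at 8 h (21.4% lower and 22.9% higher) and 50.9% at 24 h (26.2% lower and 24.7% higher). The p53 target list held 2 recovering genes. PHLDA3, which blocks AKT at the membrane, had 554, 459 and 443 normalised counts under AU-15330 and 893 and 1030.1 under DMSO at 8 h, and 861, 884 and 785 under AU-15330 and 1088, 921 and 952 under DMSO at 24 h. It stayed below DMSO with a smaller gap, with changes of -0.91 (SE 0.11) and -0.21 (SE 0.10), and RRM2B, a p53-inducible subunit of ribonucleotide reductase, had -0.66 (SE 0.15) and -0.13 (SE 0.13). Of the other 23 p53 targets tested, 2 rose, 12 fell and 9 did not pass at 8 h, and 4 rose, 8 fell and 11 did not pass at 24 h, with medians of -0.29 and -0.16, against 0.02 and 0.0088 over all entries tested. CDKN1A, the cyclin-dependent kinase inhibitor p21, fell at both times, with changes of -1.09 (SE 0.070) and -0.34 (SE 0.063) at limma adjusted p = 5.07e-07 and 0.000605. TNFRSF10B, a death receptor, had -0.95 (SE 0.10) and -0.31 (SE 0.090) at limma adjusted p = 3.56e-05 and 0.0124, just outside the 24 h threshold.

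Among chromatin coregulators HDAC7 was the member, and of 45 others 12 rose and 10 fell at 8 h and 12 rose and 7 fell at 24 h, with medians of 0.059 and 0.024. CHD4, the ATPase of NuRD, had -1.57 (SE 0.066) at 8 h and -0.67 (SE 0.059) at 24 h, and KDM4B, a histone demethylase, -0.79 (SE 0.064) and -0.89 (SE 0.057). CTSZ was the member of the lysosome and autophagy list, whose 28 other genes had 4 higher and 10 lower at 8 h and 14 higher and 7 lower at 24 h (medians of -0.14 and 0.15). WIPI2, an autophagosome protein, had -0.67 (SE 0.032) and -0.55 (SE 0.028), and CTSS, the cathepsin of antigen processing, -1.14 (SE 0.066) and -1.47 (SE 0.059). These 4 non-members passed the test at both times, with limma adjusted p-values from 5.96e-09 to 1.56e-06 at 24 h.

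The zinc finger genes with ZNF numbers had ZNF417 (-0.64 and -0.051) and ZNF594 (-0.72 and -0.14) as members. Of the other 412, 61 rose and 72 fell at 8 h, and 125 rose and 42 fell at 24 h (medians of -0.025 and 0.1). ZNF25 (1.55 and 1.18) and ZNF664 (0.64 and 0.69) had the smallest p among them at 8 h and were higher at both times. Of 161 other solute carrier genes, 41 rose and 38 fell at 8 h, and 49 rose and 45 fell at 24 h (medians of -0.014 and 0.025). SLC7A5, an amino acid transporter, was higher at both times (1.66 and 1.36), and SLC2A6, a glucose transporter family member, was lower (-1.93 and -2.11).

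Of 73 other RAB and TBC1D genes, 25 rose and 11 fell at 8 h, and 13 rose and 18 fell at 24 h (medians of 0.083 and -0.067). RAB3B, of the same subfamily as RAB3A and RAB3D, had -1.53 (SE 0.11) and -0.73 (SE 0.10) at limma adjusted p = 2.23e-06 and 0.00019, and RAB8B -0.76 and -0.93. RAB3B averaged 73.8 ± 5.15 normalised counts under AU-15330 and 162 ± 11.2 under DMSO at 24 h (SD, n = 3 each), below the level floor. Of 39 other tripartite motif genes, 5 rose and 13 fell at 8 h, and 8 rose and 15 fell at 24 h (medians of -0.11 and -0.16). TRIM72 (-1.40 and -1.24) and TRIM25 (-1.09 and -1.21) stayed low. The non-members named from these lists all passed limma's adjusted threshold at both times. The list genes that met the 8 h threshold and stayed low at 24 h numbered 4 p53 targets, 3 chromatin coregulators, 3 lysosome and autophagy genes, 9 ZNF genes, 13 solute carriers, 4 RAB and TBC1D genes and 7 tripartite motif genes.

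The other 17 lists held none of the 117 genes. Each list holds only some genes of its pathway. Members with related roles, such as WNT3, SMAD9, PLCG1 and RRAGD, were not on them, so the absence describes the lists and not the pathways. The share of their tested genes that fell at 8 h, against 21.4% of all entries, was 20 of 33 for the interferon response, 16 of 25 for B cell receptor signalling, 14 of 22 for the unfolded protein response, 16 of 29 for cell adhesion and cytoskeletal regulators, 12 of 27 for mitosis and 8 of 14 for the TNF receptor family. It was 9 of 18 for TGF-beta and BMP, 6 of 14 for Notch, 8 of 25 for Wnt, 6 of 16 for NF-kappaB targets, 10 of 26 for phosphoinositide 3-kinase and mTOR signalling, 4 of 15 for FOXO targets and 4 of 23 for immediate early genes. It was 5 of 33 for elongation and Mediator, 2 of 14 for the circadian clock, 5 of 30 for histone genes and 1 of 79 for cytosolic ribosomal protein genes. At 24 h, against 26.2% of all entries, 21 of 33 interferon response genes, 19 of 25 B cell receptor genes, 16 of 22 unfolded protein response genes, 19 of 29 adhesion and cytoskeletal regulators, 17 of 27 mitosis genes and 7 of 14 TNF receptor family genes were lower. So were 6 of 18 TGF-beta and BMP genes, 9 of 14 Notch genes, 7 of 25 Wnt genes, 9 of 16 NF-kappaB targets, 11 of 26 phosphoinositide 3-kinase and mTOR genes, 3 of 15 FOXO targets and 12 of 23 immediate early genes. In the last 4 lists it was 10 of 33 for elongation and Mediator, 2 of 14 for the circadian clock, 6 of 30 for histone genes and 5 of 79 for cytosolic ribosomal protein genes. Genes also rose: of the 14 circadian clock genes 8 were higher at 8 h and 7 at 24 h, against 22.9% and 24.7% of all entries. The numbers higher at 8 h and at 24 h were 7 and 9 of 23 immediate early genes, 5 and 5 of 15 FOXO targets, 7 and 6 of 26 phosphoinositide 3-kinase and mTOR genes, 4 and 4 of 16 NF-kappaB targets, 3 and 3 of 14 TNF receptor family genes and 5 and 8 of 25 Wnt genes. They were 5 and 2 of 25 B cell receptor genes, 6 and 6 of 33 elongation and Mediator genes, 3 and 4 of 18 TGF-beta and BMP genes, 5 and 6 of 33 interferon response genes and 2 and 0 of 22 unfolded protein response genes. They were 2 and 2 of 29 adhesion and cytoskeletal regulators, 1 and 2 of 27 mitosis genes, 0 and 2 of 14 Notch genes, 0 and 7 of 30 histone genes and 4 and 16 of 79 cytosolic ribosomal protein genes.

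The GC content of transcripts was set beside that of the other genes, with no test of the difference. The median GC content of the longest transcript was 55.0% in the 113 of 117 with a value, 54.5% in the genes that stayed low and 47.5% in all symbols. With symbols in 5 bands of equal number by GC content, from low to high, 0.56%, 0.36%, 1.02%, 1.63% and 2.2% recovered, and the share that stayed low was 3.06% in the lowest band and 13.9% in the highest. The median 8 h change of all symbols was 0.085 in the lowest band and -0.037 in the highest, and the part of GC content in the falls was not tested. Gene length had a median of 32852 bases in the recovering genes, 38541 in those that stayed low and 33085 in all, and the median number of exons was 8 in each.

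**Figure D5:**
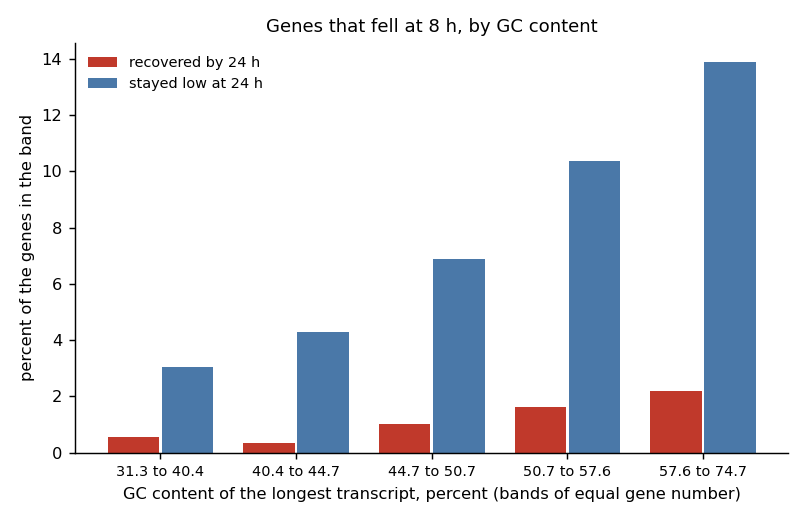
Percent of gene symbols (y axis) that recovered by 24 h (red) or stayed low (blue) in each of 5 bands of transcript GC content (x axis, percent). Both shares are highest in the band with the most G and C, at 2.2% and 13.9%.

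Chromosomes 1 and 19 held 14 recovering genes each, of 1014 and 778 symbols at the level floor, and the X chromosome held 3 of 325. Of the 117 genes, 116 are annotated as protein coding, the exception being TP73-AS1. The median SE of the 8 h change was 0.114 in the recovering genes, 0.108 in those that stayed low and 0.0758 in all symbols.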

How the data were processed

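RNA-seq libraries of Z138 cells were analysed from 1 deposited table of log2 values for 20318 gene entries, made by the authors. The tools in the submitters' processing notes are kallisto 0.46.1, DESeq2 1.24.0, R 4.3.2, Trimmomatic 0.40 and FastQC 0.11.9, with the build GRCh38.p13, and per the labels reads were 50 bp from poly(A) or ribosomal-depletion libraries. The deposited log2 values share a minimum of 10.36, as variance-stabilised normalised counts do and log CPM does not, although the design had assumed log CPM. They were inverted to normalised counts, and changes are on log2(normalised count + 60), where 60 is near 1 CPM (59.6). That scale understates the change of low genes. Of the 12 columns, 1 duplicate was not used, which left 11 libraries. The entry with the highest mean was taken per symbol, 3 genes were left out, and these, 1 marker and 1 list are not reported here, and coordinates are from GENCODE on GRCh38.

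Tests were made with limma 3.58.1 in R 4.3.3 (mean-dependent prior, 1 mean per group, 7 residual degrees of freedom) on the deposited log2 scale over the 12721 entries that reached 1 CPM in 3 or more libraries, with Benjamini-Hochberg adjustment at 0.05, and the procedure was tested on simulated data. All 117 genes passed that filter. SEs come from the same model on log2(normalised count + 60). Tables and figures used Matplotlib 3.10.9, NumPy 2.4.6, pandas 2.3.3 and Python 3.11.15. The members and lists were chosen with earlier results of these data known. Named in the text are the 10 lowest at 8 h, the 10 with the largest difference between times, the 8 most abundant, the 5 highest at 24 h, members in a list, genes nearest the thresholds and, per list, the 2 non-members with the smallest p at 8 h. Other members were named for a known role after their values were seen. Alternatives were other constants, scalings, level floors, thresholds, filters, a replicate block, summed entries and each library left out.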

Additional observations from a re-analysis of the deposited data

Results flagged for a closer look

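In 11 genes every AU-15330 library was below every DMSO library at 8 h and above every DMSO library at 24 h, which 1.88% of all 9962 symbols showed. The rule used both contrasts, so nothing is read from the count. The difference of the 24 h change minus the 8 h change, on log2(normalised count + 60), was 1.60 for ABCG1, 1.59 for MELTF, 1.39 for LILRB4, 1.38 for PDPN and 1.20 for PLXNB1. It was 1.18 for PGPEP1, 1.17 for CASTOR2, 1.08 for TRIM36, 0.89 for CDH24, 0.85 for MAPK11 and 0.80 for DIRAS1, a Ras-related GTPase. The difference was not tested, because the genes had been chosen by both changes. The first 7 of these genes also had the largest differences among the 117 apart from ZBTB12, VGF and JAM2.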

How the results depend on the processing

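The number of genes meeting the rule depended most on its thresholds, with 44 at -0.7 and -0.2 and 241 at -0.5 and -0.4. It was 80 with a constant of 200 (71 of the 117 kept), 124 with a constant of 20, 129 with library medians centred, 106 after quantile normalisation (88 kept), 145 with a level floor of 150 and 89 with a floor of 600. With the entries of a symbol summed, chosen after seeing the data, it was 115. Leaving out each library in turn gave 110 to 133 genes, and 67 of the 117 were lost in at least 1 case. Where 1 DMSO library at 8 h was left out, the other is assumed to vary like the other groups. The 8 h change of WNT3 reversed to 0.15 with its entries summed and to 0.046 without AU-15330 replicate 1 at 8 h, which had 0 counts, in a range of -1.16 to 0.046 over the leave-outs. Of 1280 recomputed values of 40 named genes, 1235 stayed within 1 SD and 43 moved. The number of the 117 at or above 0.3 at 24 h was 8 to 13. Pairing by replicate number was looked at, with the DMSO library of uncertain number at 8 h taken as 2 after its column name. Correlations of same-numbered samples ran from -0.0349 to 0.0446 (0.0107 for that library taken as 3). At 24 h same-numbered samples had 0.03 to 0.0446 and the others -0.0606 to 0.0195. These are correlations of deviations from group means, which must balance out, so they cannot settle whether the samples were paired. With the replicate block 5439 entries were called at 8 h and 6453 at 24 h, against 5624 and 6476 without it, and the medians of the 117 were -0.70 and -0.12. Over the leave-outs the calls were 4391 to 5688 at 8 h and 5754 to 6470 at 24 h. Most of the 117 average under 1000 normalised counts, where the added constant and counting error weigh most.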
